A study of Homo sapiens with 12 samples.

Results

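The data described here are the difference between 2 ways of perturbing RNA polymerase III (Pol III) in one cell line: depletion of its largest subunit, POLR3A, by siRNA, and acute treatment with ML60218, a small-molecule Pol III inhibitor. All 12 messenger RNA libraries of the series entered a single fit with 4 group means, so the 12 libraries analysed are the whole series: 6 from the siRNA experiment and 6 from the inhibitor experiment. HEK293T, an established and easily transfected human embryonic kidney line, was the cell in every group. The siControl group (3 libraries) received a control siRNA and the siPOLR3A group (3 libraries) an siRNA to POLR3A, and both were collected 2 days after knockdown. The DMSO group (3 libraries) received 0.1% DMSO as vehicle and the ML60218 group (3 libraries) received 25 µM ML60218, and both were collected 4 hours after treatment. For each gene 3 quantities were estimated: the siRNA effect (siPOLR3A minus siControl), the ML60218 effect (ML60218 minus DMSO) and the difference between the effects (siRNA effect minus ML60218 effect), all on the log2 scale. The perturbations differ in the time of exposure, in transfection and in the control they are set against, and these cannot be told apart from the route by which Pol III was targeted.

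Pol III transcribes the tRNAs, the 5S ribosomal RNA, the U6 spliceosomal RNA, 7SK, 7SL and other short noncoding RNAs, while messenger RNAs are made by RNA polymerase II (Pol II). It acts with the initiation factors TFIIIC, TFIIIB and SNAPc, and the repressor MAF1 restrains it when nutrients are short. Short RNAs of this kind are not what a messenger RNA library reads, and the matched transcripts held 0 genes of tRNA, snRNA, snoRNA or miRNA type. Whether they held 5S, 7SK, 7SL or other Pol III RNAs was not checked. The measurements below are read as mRNA levels and not as levels of Pol III products. The stress programmes that recur below are the integrated stress response, in which the transcription factor ATF4 raises genes of amino acid synthesis and transport through a short DNA element, and the heat shock response, in which HSF1 raises the genes of cytosolic chaperones.

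Each library held 37008325 to 49479476 estimated reads, and 15169 to 15627 genes had at least 10 reads. Of 12 genes that mark HEK293 cells 11 averaged at least 1 CPM (a gene's reads scaled to a library of fixed size), among them GATA3, NEFL, NES and VIM. Among 10 kidney tubule and podocyte markers only LRP2 did, SLC22A6 was at 0 in every library, and the others averaged under 1 CPM. The summed level of the HEK293 markers was 1573.8 to 1607.3 CPM in siControl and 960.6 to 984.4 CPM in siPOLR3A, beside 1312.5 to 1339.5 CPM in DMSO and 1350.2 to 1381.5 CPM in ML60218, and its part in the results below was not tested. The chi-square per gene between libraries of a group was 8.47, 13.3 and 21.7 for the 3 pairs of ML60218 libraries and 4.16 to 11.9 for the pairs of the other groups. The largest value lay between ML60218 replicates 1 and 3. In bulk libraries such as these, fewer cells with an mRNA and less of it per cell cannot be told apart.

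Of 15780 genes tested (14714 protein-coding), 8317 (52.7%) changed after siPOLR3A at an adjusted p under 0.05, 6799 (43.1%) changed with ML60218, and 8031 (50.9%) had a difference between the effects (edgeR quasi-likelihood test with Benjamini-Hochberg adjustment over all genes tested, as for every adjusted p below). Most of these changes were small: 613 genes (3.88%) changed at least 2-fold after siPOLR3A, 306 (1.94%) up and 307 (1.95%) down, while 219 (1.39%) did so with ML60218, 192 (1.22%) up and 27 (0.171%) down. The split between higher and lower depended on the scaling for ML60218, where 46.8% of called genes were higher in the main fit, 66.0% after scaling to total counts and 56.9% after upper quartile scaling, and less so for siPOLR3A, at 48.8%, 56.8% and 58.1%. The groups were free of overlap (all 3 libraries of one above all 3 of the other) for 62.4% of genes after siPOLR3A and for 51% with ML60218.

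Genes fell into classes by their calls. The class siPOLR3A alone, called after siPOLR3A, not called with ML60218 and with a called difference, held 3034 genes (19.2%), of which 1442 (9.14%) were higher and 1592 (10.1%) lower. ML60218 alone, the converse, held 1742 genes (11%), 870 (5.51%) higher and 872 (5.53%) lower. In 2271 genes (14.4%) both effects were called in opposite directions, 1222 (7.74%) of them raised by siPOLR3A but lowered by ML60218, and 1049 (6.65%) the reverse. In 1974 genes both effects were called in the same direction: 1220 (7.73%) without a called difference, of which 577 (3.66%) rose and 643 (4.07%) fell, and 754 (4.78%) with one, of which 210 (1.33%) rose and 544 (3.45%) fell. Thus of 4245 genes called under both perturbations, 2271 moved in opposite directions. The sizes differed between the classes: 323 genes of siPOLR3A alone changed at least 2-fold, 104 of ML60218 alone did, and 18 genes did so under both perturbations, 11 in the same direction, all higher, and 7 in opposite directions. Requiring each effect to exceed 1.2-fold by the test itself left 2347 genes in siPOLR3A alone, 548 in ML60218 alone, 156 in opposite directions, and 95 and 20 in the same direction without and with a called difference.

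**Figure D1:**
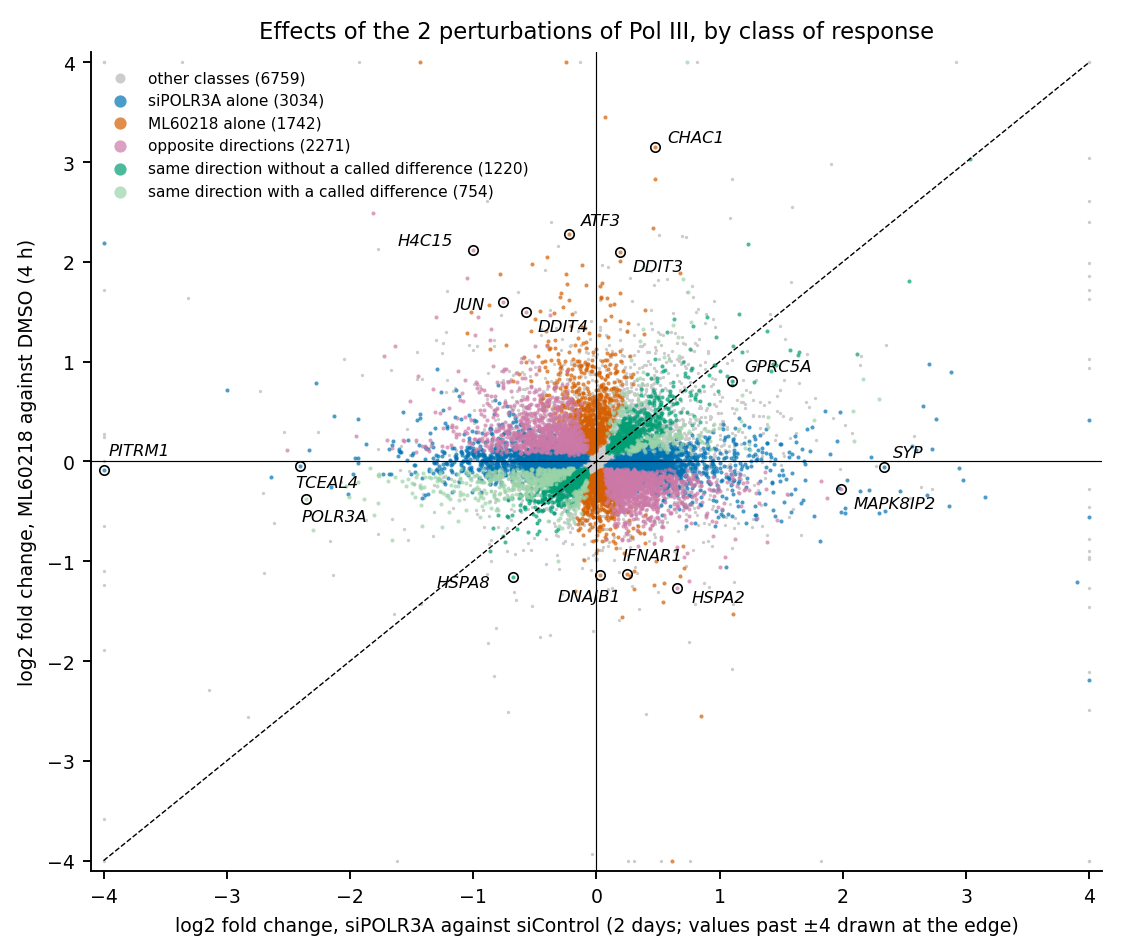
Each point is 1 of 15780 genes, with the log2 fold change after siPOLR3A on the horizontal axis and with ML60218 on the vertical axis; colours give the class of response, grey the remaining classes, the dashed line equal effects, and values past 4 lie on the edge. Named genes of siPOLR3A alone such as SYP and TCEAL4 lie along the horizontal axis, ATF3, CHAC1 and DNAJB1 along the vertical one, and PITRM1 lies on the left edge at -4.08.

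POLR3A (chromosome 10, 77969251 to 78029545, minus strand, GRCh38), which encodes the catalytic subunit, stood at 91.9, 92.5 and 86.2 CPM in siControl and at 19.1, 19.03 and 14.5 CPM in siPOLR3A. It read 112, 118 and 108 CPM in DMSO and 85.3, 89.7 and 85.7 CPM in ML60218. The groups did not overlap in either experiment. The log2 fold change was -2.36 ± 0.08 (SE, 3 against 3 libraries; adjusted p = 2.38e-10) after siPOLR3A and -0.38 ± 0.07 (adjusted p = 0.00111) with ML60218, a difference of -1.98 (95% interval -2.21 to -1.74). The ML60218 effect was -0.16 when transcripts without an annotation match were added to their neighbours' gene. POLR3A was the gene the siRNA targets, so its fall there checks the labels.

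Of 11 Pol III subunits tested, 3 rose and 3 fell after siPOLR3A, and 2 rose and 3 fell with ML60218, shares close to those of all genes (25.7% rose and 27% fell after siPOLR3A, 20.2% and 22.9% with ML60218). POLR3F, a subunit of the initiation subcomplex, rose by 0.51 after siPOLR3A and was at 0.00 with ML60218 (adjusted p = 0.98). Among 16 initiation factors and MAF1, SNAPC3, a SNAPc subunit that serves U6 and other snRNA genes, fell from 95.8 to 50.8 CPM after siPOLR3A (log2 -0.92, adjusted p = 6.41e-12) and stood at 78.4 CPM in DMSO and 82.5 CPM in ML60218 (0.07, adjusted p = 0.11; called, and opposed, without ML60218 replicate 1 and under total count and upper quartile scaling). MAF1 moved in opposite directions, from 43.9 to 53.4 CPM after siPOLR3A (0.28) and from 49.1 to 40.6 CPM with ML60218 (-0.27), as did the TFIIIC subunit GTF3C6 (0.25 and -0.27). In that list 6 members rose and 4 fell after siPOLR3A, and 3 rose and 5 fell with ML60218. A called positive difference was found in 7 members and a negative one in 4, against 24.5% and 26.4% of all genes. The negative differences thus lay near the share of all genes.

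The integrated stress response had the largest median difference, in either direction, of the 36 process lists. Of 33 list genes tested, 28 rose and 1 fell with ML60218, against 20.2% of all genes rising, while 7 rose and 9 fell after siPOLR3A, against 25.7% rising and 27% falling among all genes. The list's median log2 fold change was 0.79 with ML60218 and 0.00 after siPOLR3A, and its median difference was -0.81, beside medians of 0.01, 0.01 and -0.02 over all genes tested. By class, 14 members belonged to ML60218 alone, 9 to opposite directions, 3 to the same direction with a called difference, 2 to the same direction without one and 1, PHGDH, to siPOLR3A alone. Without ML60218 replicate 1 the ML60218 median was 0.68 and the median difference -0.85.

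ATF3, a stress-induced transcription factor, read 25.5, 27.4 and 27.4 CPM in DMSO and 97.3, 131 and 161 CPM in ML60218, a rise of 2.28 ± 0.21 on the log2 scale (adjusted p = 6.18e-05). In the siRNA experiment it read 60.6, 39.6 and 51.9 CPM in siControl and 48.1, 38.4 and 43.8 CPM in siPOLR3A, and these groups overlapped (-0.22 ± 0.21, adjusted p = 0.425). Both siRNA groups thus stood above DMSO and below ML60218. DDIT3, which encodes the transcription factor CHOP, rose with ML60218 from 6.51, 7.13 and 7.35 CPM to 26.6, 32.6 and 30.9 CPM (2.10, adjusted p = 2.31e-08) and read 7.76 to 10.1 CPM in siControl and 8.95 to 10.7 CPM in siPOLR3A (0.20, adjusted p = 0.14). CHAC1, an enzyme that degrades glutathione, rose from 1.67, 1.64 and 1.63 CPM in DMSO to 12.8, 15.9 and 15.3 CPM in ML60218 (3.15), while its siRNA effect of 0.48 missed the threshold (adjusted p = 0.053) and passed it under 6 alternatives. SLC7A11, the cystine transporter, rose 1.75 with ML60218 and its siRNA effect was 0.03 (95% interval of the difference -2 to -1.45). STC2 (1.56 and 0.11) and the asparagine synthetase gene ASNS (1.01 and 0.07) had the same pattern.

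A subset of the list moved in opposite directions. DDIT4, an inhibitor of mTORC1 signalling, fell after siPOLR3A from 188, 171 and 163 CPM to 126, 111 and 115 CPM and rose with ML60218 from 59.4, 52.7 and 61.3 CPM to 162, 163 and 166 CPM. The effects were -0.57 ± 0.06 (adjusted p = 1.00e-05) and 1.501 ± 0.07 (adjusted p = 7.47e-08), and siControl already lay at the level that ML60218 reached. The arginine and lysine transporter gene SLC7A1 behaved likewise, from 152 to 111 CPM (-0.46) and from 153 to 236 CPM (0.63). Of the serine and one-carbon genes, MTHFD2 (-0.26 and 0.41) and PSPH (-0.21 and 0.26) were opposed, and PHGDH, the entry enzyme of serine synthesis, fell after siPOLR3A (-0.37) without a called ML60218 effect (0.06). ATF5 ran counter to the list, with 0.44 after siPOLR3A and -0.66 with ML60218. ATF4 itself, which is controlled largely at translation, differed little at the mRNA level, with effects of 0.18 (adjusted p = 0.048) and 0.14 (adjusted p = 0.14) and a difference of 0.04 (adjusted p = 0.78).

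The element that ATF4 binds with C/EBP partners, searched as TGATGNAAN on both strands (reverse complement NTTNCATCA), occurred in the promoter window, 250 bases before to 50 after the gene start, of 8 of the 27 list members with a promoter in the RefSeq table (29.6%), against 4.45% of all 27305 promoters of the same length and 2.94% of those of genes tested. The stretches of the 2 members with the largest rises under ML60218 and of the classical target ASNS are shown because these genes carry the stress response result. Capitals mark the match, and the sequences are from RefSeq, build GRCh38.p14, written along the gene's strand: CHAC1 at chr15:40953221-40953309 (plus strand), ATF3 at chr1:212565176-212565264 (plus strand) and ASNS at chr7:97872428-97872516 (minus strand).
CHAC1: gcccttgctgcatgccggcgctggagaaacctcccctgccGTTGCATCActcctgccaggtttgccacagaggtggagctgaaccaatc
ATF3: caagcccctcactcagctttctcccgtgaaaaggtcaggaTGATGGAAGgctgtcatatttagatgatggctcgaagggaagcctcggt
ASNS: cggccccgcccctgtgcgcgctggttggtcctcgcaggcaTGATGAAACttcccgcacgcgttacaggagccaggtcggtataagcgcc
In CHAC1 the match lies on the other strand. A match of letters is a description and not a measured binding site, and SLC1A5, whose promoter also held one, had effects of 0.05 and -0.03, neither called.

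The heat shock genes moved the other way. With ML60218, 20 of 25 list genes tested fell and 3 rose, against 22.9% and 20.2% of all genes. After siPOLR3A 10 rose and 4 fell, against 25.7% and 27% of all genes. The list's medians were -0.23 with ML60218 and 0.11 after siPOLR3A (0.07 without siControl replicate 2 and 0.17 with the trend in GC content and length removed), and 16 members had a called positive difference (median 0.38) against 24.5% of all genes. All 9 members called in opposite directions were higher after siPOLR3A and lower with ML60218: DNAJA1, DNAJA4, DNAJB6, HSP90AA1, HSP90AB1, HSPA2, HSPB1, HSPH1 and STIP1. Of all genes 14.4% were opposed, and 7.74% of all genes were opposed in that direction. Without ML60218 replicate 1 the medians were -0.24 for ML60218 and 0.37 for the difference. DNAJA4, at under 1 CPM, lost its ML60218 call under 16 of 24 alternatives. The 20 that fell include HSPA1A, which was listed at 0 in all 3 ML60218 libraries and shares nearly all of its sequence with HSPA1B, so both are uncertain in these counts.

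HSPA2, an HSP70 family member, read 11.2, 12.5 and 12.5 CPM in siControl and 19.5, 18.2 and 19.5 CPM in siPOLR3A, and 16.3, 16.7 and 16.6 CPM in DMSO and 8.73, 6.91 and 5.07 CPM in ML60218. Its effects were 0.66 ± 0.14 (adjusted p = 0.00164) and -1.27 ± 0.14 (adjusted p = 3.91e-05), with no overlap in either experiment. DNAJA1, an HSP40 co-chaperone, moved from 236, 247 and 248 CPM to 385, 389 and 388 CPM after siPOLR3A (0.67) and from 521, 524 and 522 CPM to 389, 353 and 329 CPM with ML60218 (-0.55), so that siControl lay below every other library. HSP90AA1, the inducible HSP90, rose by 0.61 after siPOLR3A and fell by 0.15 with ML60218. DNAJB1, an HSP40 often read as an HSF1 target, responded to ML60218 alone: 125, 132 and 130 CPM in DMSO fell to 74.9, 58.4 and 44.2 CPM (-1.13 ± 0.15, adjusted p = 0.000406), while siControl (94.5 to 102 CPM) and siPOLR3A (96.6 to 102 CPM) overlapped (0.03).

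HSPA8, the constitutive HSP70, was among the 4 members lowered by both (with a called difference under 3 of 24 alternatives, the fit without ML60218 replicate 1 among them). It fell from 1561, 1579 and 1718 CPM to 1003, 1003 and 1027 CPM after siPOLR3A (-0.68 ± 0.15, adjusted p = 0.00407) and from 2237, 2290 and 2269 CPM to 1286, 970 and 789 CPM with ML60218 (-1.16 ± 0.15, adjusted p = 0.000326). The difference of 0.48 (95% interval 0.01 to 0.95) was not called (adjusted p = 0.086) but was under DESeq2, limma voom and without ML60218 replicate 1. The other 3, DNAJB4, PTGES3 and CACYBP, had differences of 0.06, -0.04 and 0.01.

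**Figure D2:**
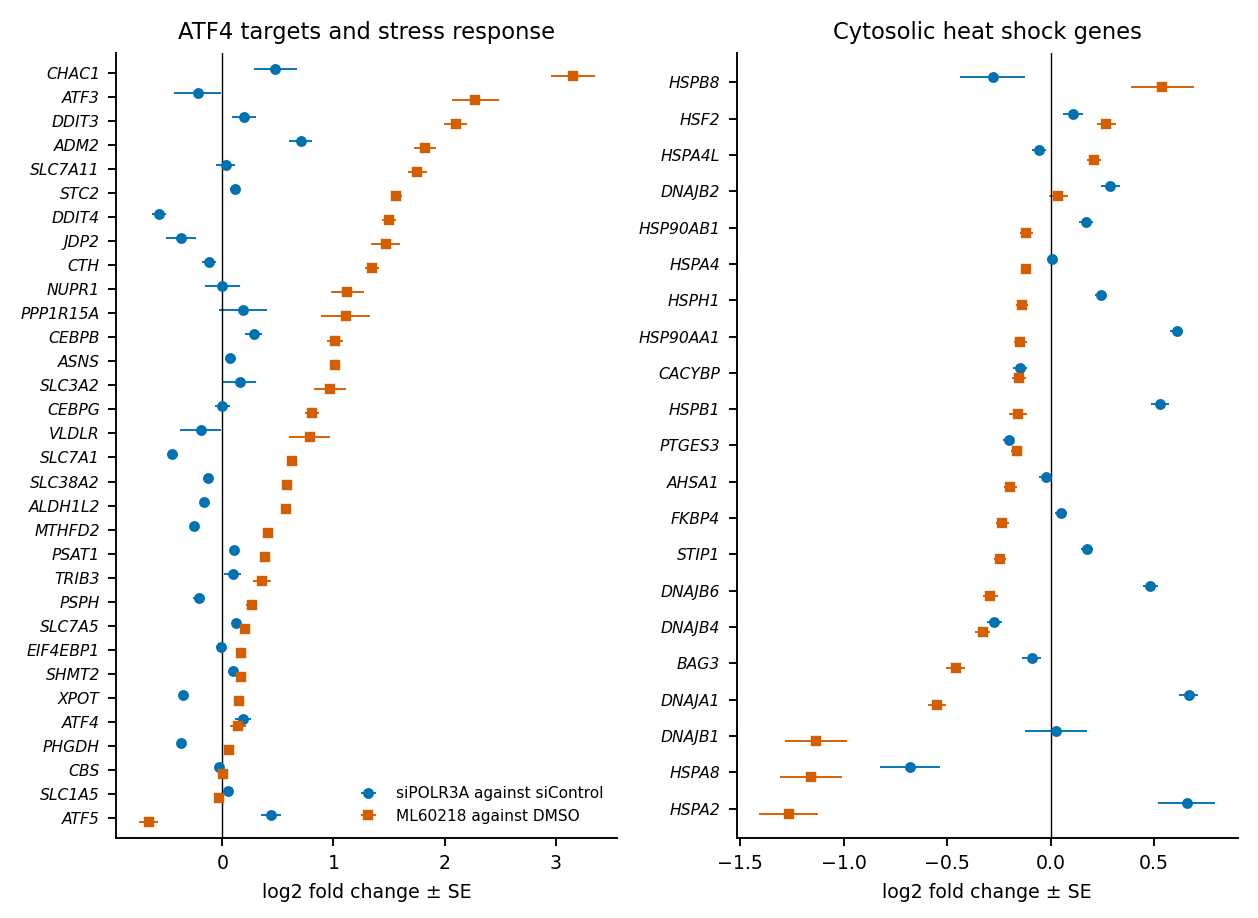
Members of the stress response list (left) and the heat shock list (right) above a low level (a mean log2 CPM of about -0.5), one gene a line, with the log2 fold change ± SE after siPOLR3A (circles) and with ML60218 (squares). In the left panel nearly all squares lie right of 0 while the circles lie on both sides, and in the right panel most squares lie left of 0, with HSPA2, HSPA8 and DNAJB1 lowest.

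The heat shock element was searched as alternating triplets GAA, TTC, GAA with any 2 bases between neighbours (GAA-NN-TTC-NN-GAA), and as its reverse complement, in the same windows. It occurred in 6 of 24 heat shock promoters (25%) against 0.608% of all promoters and in 0 of 27 stress response promoters. The promoters of HSPA8, lowered by both, and DNAJA1, opposed, both held a match and are shown because the genes responded differently. In HSPA8 the match shown starts at -55 from the gene start and is to the reverse complement. Another match in HSPA8, not shown, starts at -230. In DNAJA1 the match starts at 3, and its letters differ from those of HSPA8. The stretches are HSPA8 at chr11:123062139-123062231 (minus strand) and DNAJA1 at chr9:33025236-33025322 (plus strand), with the match in capitals.
HSPA8: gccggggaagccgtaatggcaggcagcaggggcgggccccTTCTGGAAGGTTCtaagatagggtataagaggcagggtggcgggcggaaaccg
DNAJA1: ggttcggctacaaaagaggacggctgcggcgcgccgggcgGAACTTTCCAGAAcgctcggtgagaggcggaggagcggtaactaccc

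Pol II subunits and the protein partners of Pol III RNAs fell with ML60218 in larger shares than the 22.9% of all genes. Among all genes 25.7% rose and 27% fell after siPOLR3A, 24.5% had a called positive difference and 14.4% were opposed. Of 12 Pol II subunits, 11 fell with ML60218 (median -0.23), while 6 rose and 2 fell after siPOLR3A (median 0.14; 0.08 with the trend in GC content and length removed), and 9 had a called positive difference. POLR2F, a subunit that Pol I, II and III share, moved from 57.4, 60.1 and 57.8 CPM to 69.9, 66.6 and 68.7 CPM after siPOLR3A (0.23) and from 87.2, 85.6 and 85.3 CPM to 64.9, 63.8 and 53.2 CPM with ML60218 (-0.51). POLR2D fell under both (-0.66 and -0.24). Of 31 protein partners of Pol III RNAs, 22 fell and 3 rose with ML60218 against 9 rises and 10 falls after siPOLR3A, and 11 were opposed. The siRNA counts of the partners lay near the shares of all genes. LSM3 and LSM7 belong to the ring that binds U6, and they rose by 0.60 and 0.68 after siPOLR3A and fell by 0.52 and 0.40 with ML60218. HEXIM1, which binds 7SK and holds P-TEFb inactive, read 64.1, 67.0 and 63.3 CPM in siControl, 77.7, 74.9 and 78.5 CPM in siPOLR3A, 89.9, 94.3 and 94.5 CPM in DMSO and 69.9, 55.7 and 57.3 CPM in ML60218 (0.25 and -0.61).

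The cytosolic aminoacyl-tRNA synthetases, which charge tRNAs with amino acids, had 9 of 23 members in opposite directions, against 14.4% of all genes. With ML60218 12 rose and 7 fell, after siPOLR3A 6 rose and 10 fell, and the median difference was -0.14. SARS1 fell from 220, 217 and 219 CPM to 168, 170 and 164 CPM after siPOLR3A and rose from 222, 224 and 225 CPM to 260, 286 and 274 CPM with ML60218 (-0.39 and 0.29). EPRS1 and YARS1 followed it, and HARS1 went the other way, up by 0.22 after siPOLR3A and down by 0.19 with ML60218. MARS1 was raised by both (0.32 and 0.25, adjusted p of the difference 0.12). Among 49 tRNA processing and modification genes, 20 rose and 13 fell after siPOLR3A and 12 rose and 12 fell with ML60218, where all but the siRNA rises lay near the shares of all genes (25.7% and 27%, 20.2% and 22.9%). There 18 belonged to siPOLR3A alone, such as TYW1, a wybutosine synthesis enzyme (20.03 to 21.7 CPM in siControl and 42.4 to 43.2 CPM in siPOLR3A; 1.05; its ML60218 effect of 0.10 was called without ML60218 replicate 1 and under total count and upper quartile scaling), and WDR4, a subunit of the m7G tRNA methyltransferase (0.89). CLP1, a tRNA splicing factor, was opposed (0.48 and -0.46).

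Immediate early and growth factor-responsive genes held rises under each perturbation, mostly in different genes. Of 40 tested, 18 rose and 5 fell after siPOLR3A and 19 rose and 5 fell with ML60218, with medians of 0.20 and 0.32. The shares of all genes were 25.7% and 27% after siPOLR3A, and 20.2% and 22.9% with ML60218. By class, 7 belonged to siPOLR3A alone, 11 to ML60218 alone and 6 to opposite directions. Another 6 moved in the same direction without a called difference and 1 with one. A called positive difference was found in 12 and a negative one in 14, against 24.5% and 26.4% of all genes. JUN was opposed: 263, 217 and 236 CPM fell to 153, 135 and 135 CPM after siPOLR3A (-0.76 ± 0.21, adjusted p = 0.016), and 195, 192 and 192 CPM rose to 408, 549 and 792 CPM with ML60218 (1.60 ± 0.21, adjusted p = 0.000433). The siRNA call of JUN was lost without siControl replicate 1, siPOLR3A replicate 2 or siPOLR3A replicate 3. DUSP1, a MAP kinase phosphatase, rose with ML60218 alone, from 18.6, 19.1 and 20.5 CPM to 42.8, 59.7 and 94.6 CPM (1.76), with siControl at 29.6 to 41.3 CPM and siPOLR3A at 30.2 to 36.6 CPM (-0.08). GADD45B (0.93 and 0.05) and KLF2 (1.67 and 0.13) rose after siPOLR3A alone, KLF2 at 1.00 CPM or less. RHOB was raised alike (0.42 and 0.38), with a difference of 0.04.

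Replication-dependent histone mRNAs, most of which lack a poly(A) tail, were at low levels, with 29 of 59 listed genes tested. After siPOLR3A 1 rose and 8 fell, and with ML60218 6 rose and 1 fell, with 7 called negative differences. Among all genes 25.7% rose and 27% fell after siPOLR3A, and 20.2% rose and 22.9% fell with ML60218. A called negative difference was found in 26.4% of all genes. The larger counts of the list thus lay near those shares, and the single changes the other way lay below them. H4C15 read 13.4, 14.3 and 12.3 CPM in siControl, 5.87, 6.41 and 7.71 CPM in siPOLR3A, 8.97, 12.2 and 9.19 CPM in DMSO and 30.8, 36.4 and 64.7 CPM in ML60218. Its effects of -1.001 and 2.12 gave the most negative difference of the opposed protein-coding genes above that level, -3.12 (95% interval -4.06 to -2.18). H4C14, its near-identical neighbour, rose with ML60218 (1.97) and had a siRNA effect of -0.12, and the split of reads between the 2 copies is uncertain. The siRNA call of H4C15 was lost without siControl replicate 1 or 2 or siPOLR3A replicate 1 or 2, with a replicate block, and in the test against a 1.2-fold change. Next to it in the size of a negative difference among opposed genes came NIBAN1 (-2.51 and 0.12), whose ML60218 call was lost under 16 of 24 alternatives, JUN, and SLFN5, a Schlafen family gene (-1.45 and 0.86).

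The genes that answered siPOLR3A alone included neuronal and vesicle genes among those that rose. SYP, which encodes the synaptic vesicle protein synaptophysin, had the largest rise of the class among its protein-coding genes above a mean log2 CPM of 3: 7.01, 7.76 and 8.42 CPM in siControl became 38.0, 39.4 and 39.7 CPM in siPOLR3A (2.33 ± 0.07, adjusted p = 1.79e-13), beside 18.9, 20.1 and 20.3 CPM in DMSO and 20.02, 19.2 and 17.98 CPM in ML60218 (-0.05). In a list of 24 neuronal genes under the repressor REST, 14 rose and 2 fell after siPOLR3A (median 0.62), 2 rose and 7 fell with ML60218 (median -0.14; -0.08 without ML60218 replicate 1 and -0.07 under total counts or with the trend in GC content and length removed), and 12 had a called positive difference. Among all genes 25.7% rose and 27% fell after siPOLR3A, 20.2% rose and 22.9% fell with ML60218, and 24.5% had a called positive difference. The 7 falls with ML60218 were thus only a little above the share of all genes. The list member MAPK8IP2, a scaffold of JNK signalling, was opposed: 10.6, 10.7 and 11.2 CPM rose to 41.9, 42.1 and 44.8 CPM after siPOLR3A (1.99), and 24.9, 25.5 and 24.6 CPM fell to 21.8, 20.3 and 20 CPM with ML60218 (-0.27). STMN3 (1.55 and -0.32) was opposed too, and CPLX1, a regulator of vesicle release, rose after siPOLR3A alone (1.48). REST itself fell under both, from 105 to 72.2 CPM (-0.55) and from 78.1 to 60.9 CPM (-0.36), and the difference was not called (-0.19, adjusted p = 0.074). Other rises of siPOLR3A alone were ARRDC4, an arrestin-domain gene under MondoA (1.44), DPYSL4 (1.38), the DNA methyltransferase gene DNMT3B (1.43) and the readthrough gene MSANTD3-TMEFF1 (1.71), whose reads cannot be told apart from those of the genes it joins. DNMT3B counted as opposed under 6 of 24 alternatives.

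The falls of siPOLR3A alone were larger still. PITRM1, a mitochondrial protease that clears cleaved targeting peptides, read 141, 138 and 132 CPM in siControl and 7.62, 4.62 and 12.2 CPM in siPOLR3A (-4.08 ± 0.22, adjusted p = 4.05e-07), beside 147, 148 and 148 CPM in DMSO and 136, 147 and 137 CPM in ML60218 (-0.08). With transcripts lacking an annotation match added, the siRNA effect of PITRM1 was -2.63. TCEAL4, of a family of X-linked genes related to an elongation factor, fell from 196, 208 and 200 CPM to 39.5, 37.1 and 37.6 CPM (-2.40), while DMSO (210 to 218 CPM) and ML60218 (204 to 211 CPM) overlapped. TCEAL3 (-2.64), TCEAL1 (-0.50) and TCEAL8 (-1.40) fell as well, TCEAL8 also with ML60218 (-0.26), and of 11 TCEAL and BEX genes tested 7 fell after siPOLR3A and 4 with ML60218, while BEX1 rose (1.08) after siPOLR3A and counted as opposed without ML60218 replicate 1. Among all genes 27% fell after siPOLR3A and 22.9% with ML60218. HERC5, the ligase that attaches ISG15, fell from 39.7, 38.5 and 39.8 CPM to 10.1, 11.1 and 9.66 CPM (-1.94), and HABP4 (-1.94) and the fatty acid transporter gene SLC27A2 (-1.96) fell as well. The desaturase genes FADS1 (-1.83) and FADS2 (-1.69) also fell after siPOLR3A, with ML60218 effects of -0.07 and -0.20. The small effect of FADS1 with ML60218 was 0.00 after scaling to total counts and was not called under 10 of 24 alternatives, including each fit that left out 1 ML60218 library.

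**Figure D3:**
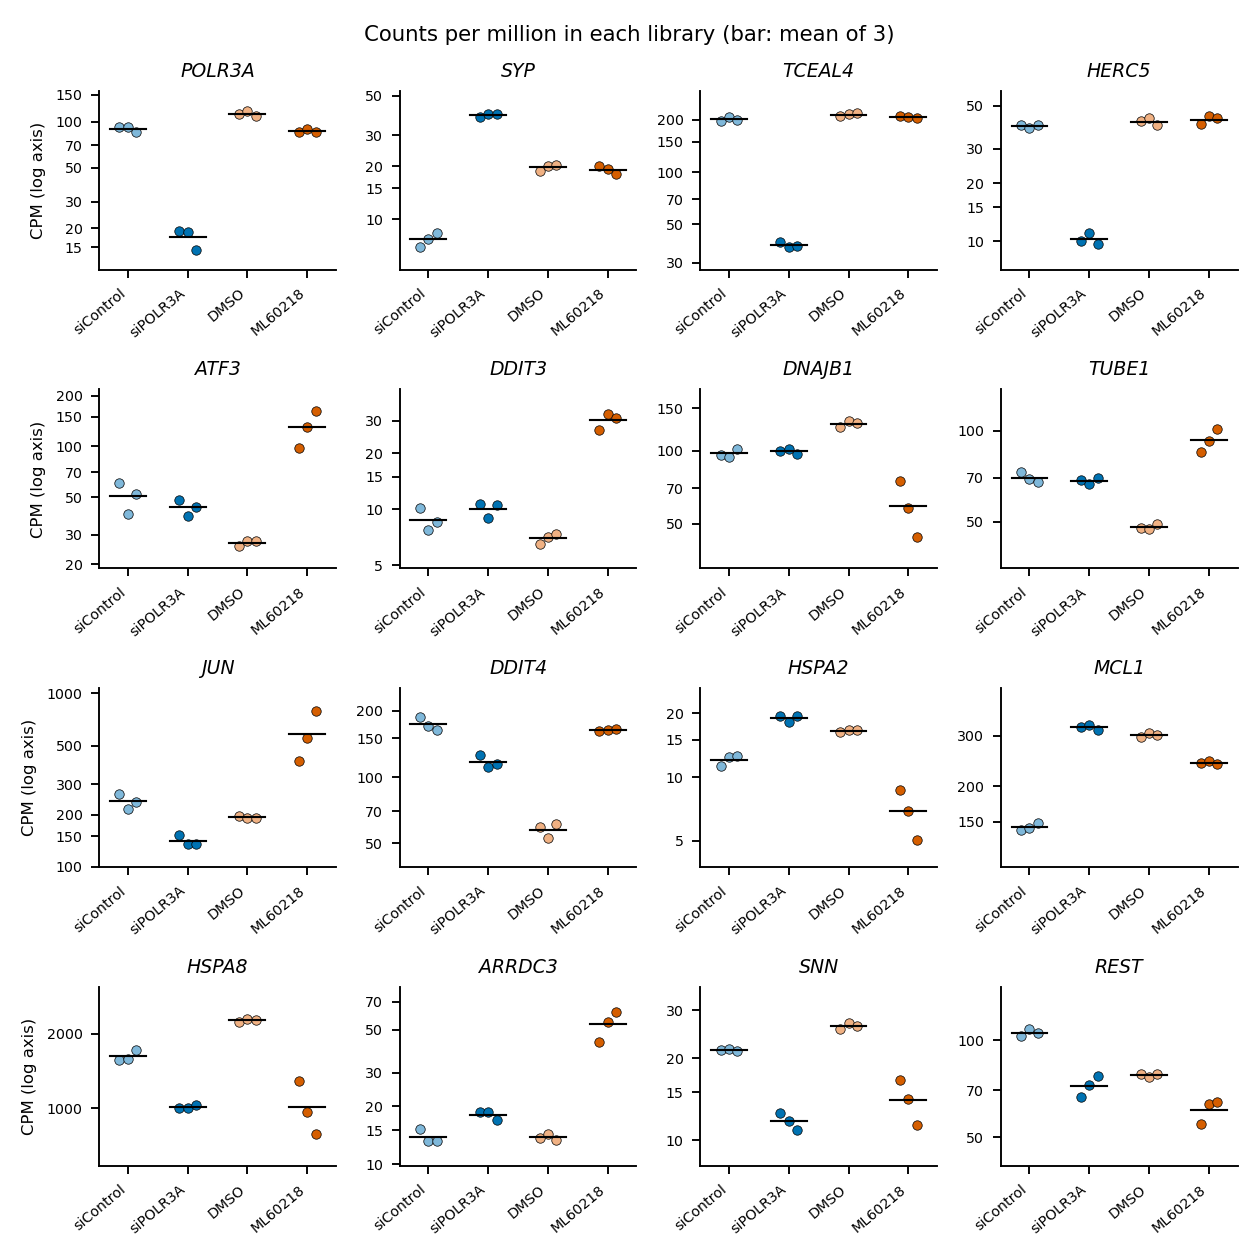
CPM on a log axis in each of the 12 libraries for 16 genes, with points for libraries and a bar for the mean of each group of 3. POLR3A, SYP, TCEAL4 and HERC5 differ most between siControl and siPOLR3A, ATF3, DDIT3, DNAJB1 and TUBE1 between DMSO and ML60218, JUN, DDIT4, HSPA2 and MCL1 move in opposite directions, and HSPA8, ARRDC3, SNN and REST move in the same one.

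Short letter patterns in 3′ untranslated regions (UTRs) differed between the classes. The hexamers GAGGGA and GACGTA were picked from earlier results of these data, so their shares are descriptions. GAGGGA occurred in the 3′ UTR of 58% of 150 genes of siPOLR3A alone that fell at least 2-fold, against 35.1% of all 14591 genes scanned, 43.1% of opposed genes that fell after siPOLR3A and 28.5% of opposed genes that rose after it. Median 3′ UTR lengths in those sets were 1126, 1086, 1687 and 1009 bases. GACGTA occurred in 7.09% of 141 genes of siPOLR3A alone that rose at least 2-fold and in 8.8% of genes raised alike by both perturbations, against 3.91% of all. PITRM1, TCEAL3 and TCEAL4, the largest falls, held neither hexamer in the 3′ UTR scanned. Stretches of 30 bases, from the GENCODE release 29 transcript with the most reads, are shown for 3 genes that fell strongly, with the hexamer in capitals.
HERC5: ataagcaggaaaGAGGGAtgaagaagaggg
FADS1: agaggggagcttGAGGGAcaatgccactat
HABP4: cgcggaagcatgGAGGGAaaggaggttgta
The sequences of the siRNAs were not used here, and a link between them and these hexamers was not tested.

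The rises of ML60218 alone of at least 2-fold numbered 89 against 15 falls. Apart from the stress response genes they included LRRC8D, a subunit of the volume-regulated anion channel, at 39.2, 37.6 and 40.3 CPM in DMSO and 89.4, 114 and 122 CPM in ML60218 (1.48, adjusted p = 1.71e-06), beside 43.0 to 44.8 CPM in siControl and 37.9 to 38.7 CPM in siPOLR3A (-0.20, adjusted p = 0.11). Its siRNA groups did not overlap, and LRRC8D counted as opposed under DESeq2, in fits of each experiment alone, and without ML60218 replicate 1 or 3. The tubulin gene TUBE1, which encodes centriolar epsilon-tubulin, rose from 47.7, 47.4 and 49.4 CPM to 85.5, 92.8 and 102 CPM (0.96) and had a siRNA effect of -0.03. Among the falls, IFNAR1, a chain of the type I interferon receptor, read 46.0, 45.9 and 37.1 CPM in DMSO and 24.4, 17.9 and 16.7 CPM in ML60218 (-1.13), and 20.6 to 34.3 CPM over the siRNA libraries (0.25, adjusted p = 0.29). CBX6, a Polycomb chromobox protein, fell by 0.92, and the transcriptional repressor gene NACC2 by 0.80 (opposed without ML60218 replicate 1 and in fits of each experiment alone). CBX6 counted as opposed under 8 of 24 alternatives, among them the fit without ML60218 replicate 1, in which its siRNA effect, 0.23 here, passed the threshold. PIF1, a DNA helicase, fell by 0.66 with ML60218 from 18.4, 20.9 and 23.3 CPM to 16.7, 12.8 and 10.3 CPM. In the siRNA experiment PIF1 read 17.4 to 19.8 CPM in siControl and 21.6 to 23.7 CPM in siPOLR3A without overlap (0.30, adjusted p = 0.12), and it counted as opposed without ML60218 replicate 1 or 3 and in fits of each experiment alone, while neither effect was called in the test against a 1.2-fold change.

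Nuclear genes of mitochondrial proteins fell in larger numbers with ML60218. Among all genes 22.9% fell with ML60218, and 25.7% rose and 27% fell after siPOLR3A. By class, 4.07% of all genes were lowered alike, 11% responded to ML60218 alone and 14.4% were opposed. A called positive difference was found in 24.5% of all genes and a negative one in 26.4%. Of 73 nuclear-encoded respiratory chain genes tested, 64 fell with ML60218 (median -0.23), and 29 fell and 4 rose after siPOLR3A (median -0.08). By class, 24 were lowered alike, 22 responded to ML60218 alone, 4 were opposed and 1 belonged to siPOLR3A alone, and 28 had a called positive difference. NDUFA2, of complex I, fell by 0.43 with ML60218 and had a siRNA effect of 0.06, while NDUFB10, also of complex I, fell far more after siPOLR3A (132, 132 and 141 CPM to 49.5, 51.2 and 49.3 CPM; -1.43) than with ML60218 (-0.24). The mitochondrial ribosomal proteins divided more evenly, with 50 of 76 lowered by ML60218 and 36 by siPOLR3A, 14 alike, and both positive (26) and negative (15) differences. MRPL19 fell by 1.05 after siPOLR3A and by 0.13 with ML60218. Of the 13 mRNAs of the mitochondrial genome 0 changed after siPOLR3A (edgeR; 0 also at an unadjusted p under 0.05, and 0 by DESeq2 and by limma voom). With ML60218 3 of them (23.1%) fell, near the 22.9% of all genes. MT-ND2 read 4347, 4719 and 5484 CPM in DMSO and 3591, 2714 and 2282 CPM in ML60218 (-0.76 ± 0.17, adjusted p = 0.00703), and neither its effect nor its difference was called with a replicate block.

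Of 77 cytosolic ribosomal protein genes 58 fell with ML60218 (median -0.14), while after siPOLR3A 11 rose and 11 fell (median 0.02), with 24 in ML60218 alone and 11 opposed. Among all genes 22.9% fell with ML60218, and 25.7% rose and 27% fell after siPOLR3A. By class, 19.2% belonged to siPOLR3A alone, 11% to ML60218 alone and 14.4% were opposed, and 4.07% were lowered alike. The opposed ribosomal protein genes thus lay near the share of all genes, and both siRNA counts lay below theirs. Single members changed strongly after siPOLR3A. RPL27A fell from 852, 820 and 874 CPM to 310, 299 and 314 CPM (-1.46), with -0.16 under ML60218, and RPS15A fell by 1.21. RPL34 was opposed (0.30 and -0.25). In the list of 56 nucleolar ribosome biogenesis genes, 13 were opposed, such as GRWD1, a histone-binding nucleolar protein (1.18 and -0.44), and NIP7 (0.49 and -0.51). Of 41 translation factors, 15 belonged to siPOLR3A alone, among them EIF4B, a helicase cofactor (1057, 1038 and 1050 CPM to 558, 568 and 554 CPM; -0.90 with an ML60218 effect of 0.00), and 8 were opposed, among them EIF3B (0.91 and -0.20). Proteasome subunits resembled the respiratory chain, with 30 of 34 lowered by ML60218 and 15 by siPOLR3A, and 9 lowered alike. NFE2L1, the transcription factor that raises proteasome genes, fell after siPOLR3A (172, 173 and 171 CPM to 60.7, 59.8 and 58.6 CPM; -1.53) much more than with ML60218 (-0.18).

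Of 34 mitosis genes, 25 fell with ML60218 (median -0.18), 15 fell and 9 rose after siPOLR3A, and 9 were opposed. The shares of all genes were 22.9% falling with ML60218, 27% falling and 25.7% rising after siPOLR3A, and 14.4% opposed. The siRNA rises of the mitosis genes thus lay near the share of all genes. UBE2C, a ubiquitin-conjugating enzyme that works with the anaphase-promoting complex, was opposed. It read 66.2, 61.9 and 60.0 CPM in siControl and 78.1, 73.5 and 73.8 CPM in siPOLR3A (0.26). In the inhibitor experiment it read 93.2, 91.3 and 92.0 CPM in DMSO and 63.5, 63.1 and 53.1 CPM in ML60218 (-0.62). The cyclin gene CCNB1 was opposed likewise (0.20 and -0.45), AURKA fell under both (-0.21 and -0.57) and HMMR fell after siPOLR3A alone (-0.41 and -0.03). Among 44 replication genes 7 were opposed, about the 14.4% of all genes, CCNE1 (0.75 and -0.48) among them. Of 28 p53 targets 7 and of 18 BCL2 family genes 6 were opposed. BAX, a pore-forming death effector in both lists, rose after siPOLR3A by 0.51 and fell with ML60218 by 0.27, and TRIAP1, a p53 target, had effects of 0.23 and -0.64. TNFRSF10D, a decoy receptor for the death ligand TRAIL and also a p53 target, had effects of 0.75 and -1.20. HRK, a pro-death BH3-only member of the BCL2 family, went the other way (-0.44 and 0.66). MCL1, an anti-apoptotic protein, read 141, 143 and 149 CPM in siControl, 322, 327 and 315 CPM in siPOLR3A, 297, 307 and 301 CPM in DMSO and 241, 245 and 240 CPM in ML60218 (1.16 and -0.32, difference 1.47).

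All 9 genes of the MondoA glucose-sensing list changed after siPOLR3A, 6 up and 3 down, and 3 rose and 3 fell with ML60218. The shares of all genes were 25.7% and 27% after siPOLR3A, and 20.2% and 22.9% with ML60218. TXNIP, the best known MondoA target, was opposed (35.3 to 51.0 CPM, 0.53, and 37.5 to 24.9 CPM, -0.59), but ARRDC3, an arrestin-domain relative, rose far more with ML60218, from 13.7, 14.4 and 13.4 CPM to 43.4, 54.8 and 62.0 CPM (1.95), than after siPOLR3A (0.38, a call lost under 7 of 24 alternatives). Of 39 mTORC1 and amino acid sensing genes 11 belonged to siPOLR3A alone and 9 were opposed, against 19.2% and 14.4% of all genes. SLC36A1, a lysosomal amino acid transporter, read 19.6, 19.4 and 20 CPM in siControl, 72.1, 72.4 and 71.8 CPM in siPOLR3A, 33.6, 32.9 and 33.5 CPM in DMSO and 27.1, 25.3 and 25.6 CPM in ML60218 (1.87 and -0.36, adjusted p = 8.97e-15 and 3.78e-06). Of 27 cholesterol genes 10 were opposed and 7 belonged to siPOLR3A alone. Of 17 fatty acid genes 5 belonged to siPOLR3A alone and 2 were opposed, the latter below the 14.4% of all genes. FASN, the fatty acid synthase, was opposed (0.50 and -0.33). Of 26 unfolded protein response genes 6 were opposed, with XBP1 lower after siPOLR3A (-0.22) and higher with ML60218 (0.59; its siRNA call was lost under 7 alternatives), and of 29 interferon-stimulated genes 10 changed after siPOLR3A and 5 with ML60218, lower shares than the 52.7% and 43.1% of all genes. Against 14.4% of all genes, opposed members numbered 3 of 20 mitochondrial chaperones and proteases, 2 of 23 NRF2 targets and 1 of 12 RNA interference genes, which is near or below that share, and 3 of 14 Pol I genes, 3 of 12 MYC network genes and 6 of 21 splicing regulators.

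Genes that both perturbations changed alike included few large changes. Of the 1220 genes of the same direction without a called difference, 577 rose and 643 fell, and in 1112 the whole 95% interval of the difference lay within 0.5 on the log2 scale. The median width of that interval to each side was 0.19 over all genes, so an uncalled difference leaves room for one of about that size. SNN, which encodes the small membrane protein stannin, had the largest shared fall by the rule used: 21.5, 21.5 and 21.2 CPM to 12.6, 11.8 and 10.9 CPM after siPOLR3A (-0.86 ± 0.10) and 25.7, 27 and 26.1 CPM to 16.7, 14.2 and 11.4 CPM with ML60218 (-0.90 ± 0.10), a difference of 0.04 (-0.27 to 0.36). INTS5, a subunit of the Integrator complex that processes snRNAs made by Pol II, fell by 0.75 and 0.80 (interval -0.13 to 0.24), and PLAGL2 and C4orf3 fell alike. Among shared rises, ZNF473, a zinc finger protein of histone pre-mRNA processing, rose by 0.78 and 0.94 (interval -0.45 to 0.12; the difference was called without ML60218 replicate 1), and the transcription factor gene HLF rose from 6.38, 5.53 and 5.87 CPM to 10.6, 10.6 and 11.2 CPM (0.86) and from 6.46, 6.73 and 6.496 CPM to 9.42, 11.9 and 11.8 CPM (0.75). GPRC5A rose by 1.101 and 0.81, with a difference of 0.29 (0.01 to 0.57) that was called under 3 alternatives, and ZNF239, PHF21B and ISL2 rose with differences of 0.07, 0.10 and -0.11.

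Of 15 tubulins 6 were lowered alike, against 4.07% of all genes: TUBA1B, TUBA1C, TUBB, TUBB2A, TUBD1 and TUBG1. TUBB, a main beta-tubulin, fell from 1658 to 1415 CPM (-0.23) and from 1714 to 1396 CPM (-0.30). The family also held members that did not follow: TUBB6 fell by 1.5 after siPOLR3A and by 0.31 with ML60218, TUBB2B fell by 1.47 after siPOLR3A with an ML60218 effect of 0.09, and TUBE1 rose with ML60218 alone.

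**Figure D4:**
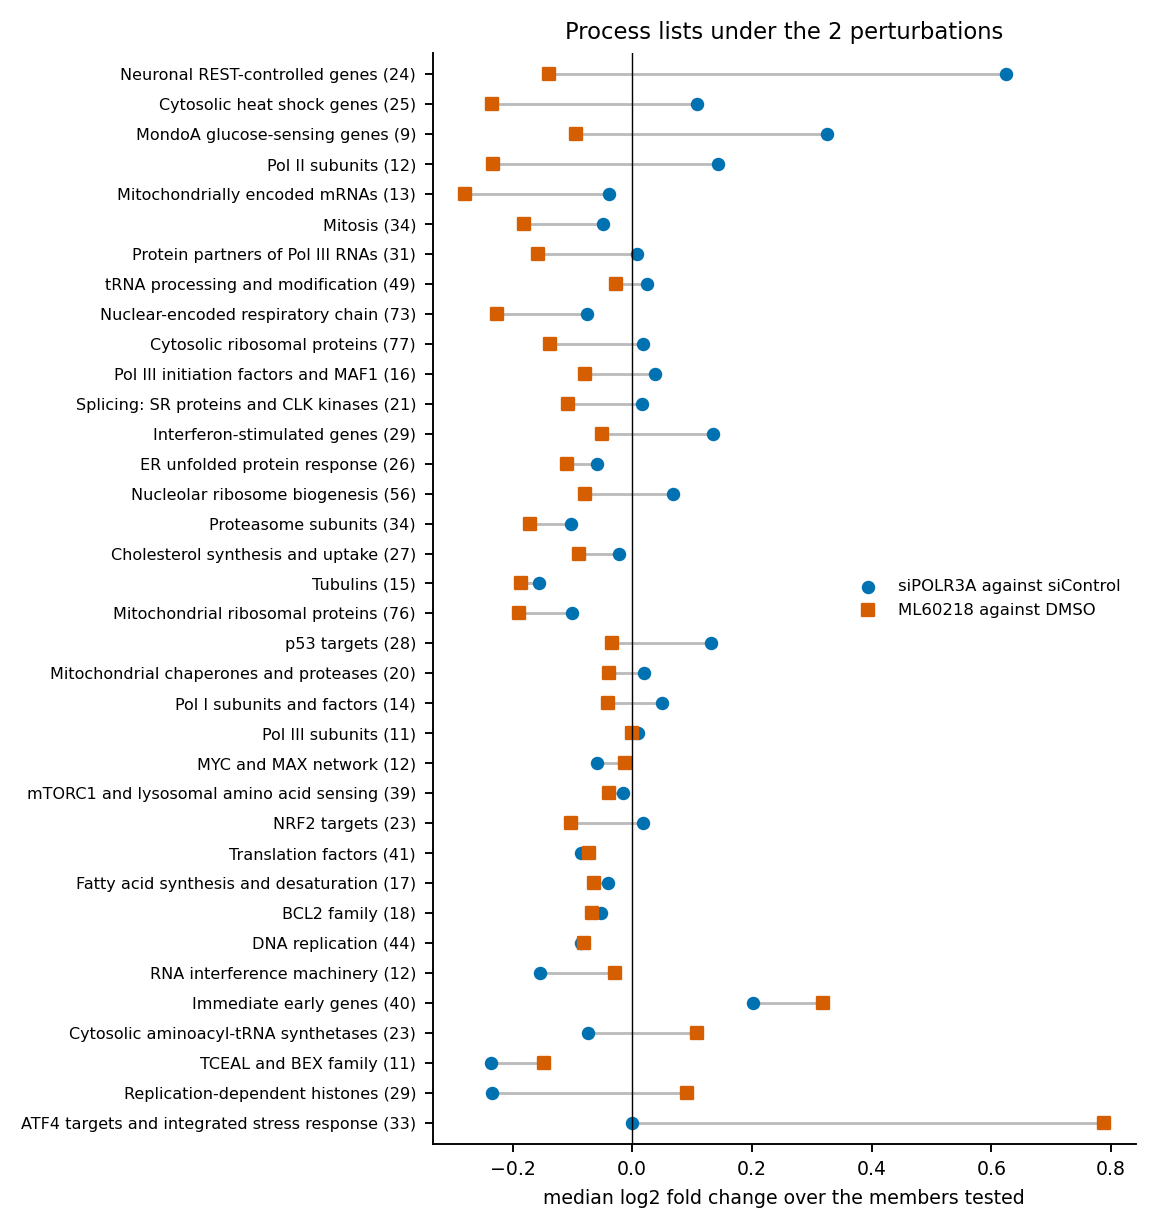
Median log2 fold change over the tested members of 36 process lists after siPOLR3A (circles) and with ML60218 (squares), sorted by the median difference, with the number tested in brackets. The stress response list lies at 0.00 and 0.79, the neuronal list at 0.62 and -0.14 and the heat shock list at 0.11 and -0.23, whereas the tubulin, proteasome and mitochondrial ribosomal lists have both medians below 0.

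The 4 groups share a cell line but not a baseline, and the levels of the control groups differed in the sets that differ between the effects. These sets were chosen on all 4 groups, so the following is a description without a test. For the 1222 opposed genes that rose after siPOLR3A, the siControl mean lay below the DMSO mean (median log2 ratio -0.27) and the siPOLR3A mean at it (0.01). In that set siPOLR3A was within 0.5 of DMSO for 89.4% of genes, against 72.7% of all genes tested. For the 1049 opposed genes that fell after siPOLR3A, siControl lay above DMSO (0.25) and siPOLR3A below it (-0.14), and siPOLR3A was nearer to DMSO than siControl was for 55.8%, against 69.6% of the first set and 42% of all genes. MCL1 (144 CPM in siControl, 321 in siPOLR3A, 302 in DMSO), EIF3B (251, 473 and 460 CPM), GRWD1 (33.5, 75.7 and 80.8 CPM) and the axon guidance gene NTN1 (9.36, 33.0 and 36.7 CPM; its ML60218 call of -0.20 was lost under 4 alternatives) belonged to the first set, with siControl below DMSO and siPOLR3A near it. For the 167 genes of siPOLR3A alone that rose at least 2-fold the median log2 ratios to DMSO were -0.52 in siControl and 0.72 in siPOLR3A, and 85 of them had siControl lower than DMSO by 0.5 or more. For the 156 that fell at least 2-fold the ratios were 0.14 and -1.03, so there siPOLR3A was the group apart. For the 89 rises of ML60218 alone of at least 2-fold, both siRNA groups stood above DMSO, by 0.58 in siControl and 0.45 in siPOLR3A. Whether transfection, time or the experiment sets these baselines cannot be told apart in this design.

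**Figure D5:**
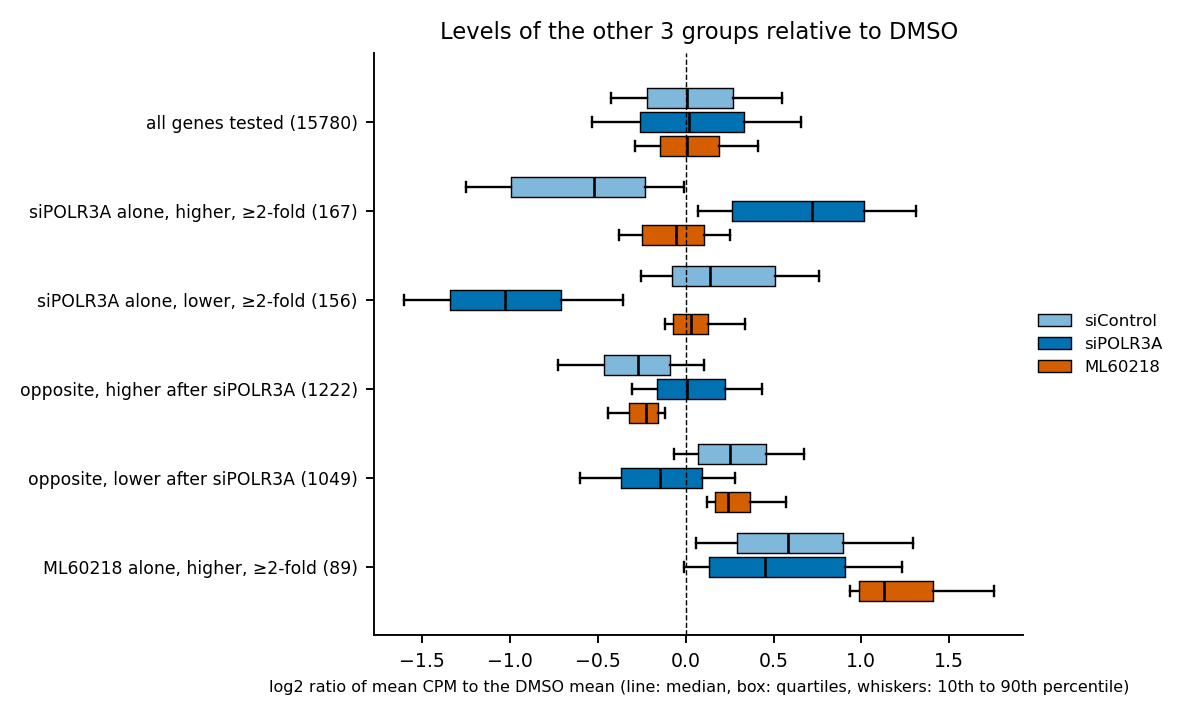
Log2 ratio of each group's mean CPM (plus 0.1) to the DMSO mean for 6 sets of genes, with the line at the median, the box at the quartiles and whiskers from the 10th to the 90th percentile; the number of genes is in brackets. The siControl boxes lie left of 0 for genes that rose after siPOLR3A, the siPOLR3A box lies far left for genes that fell at least 2-fold, and both siRNA boxes lie right of 0 for genes raised by ML60218 alone.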

How the data were processed

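Messenger RNA libraries (mRNA kit, per the labels' protocols) from 12 HEK293T samples were analysed. The authors deposited a table of estimated counts and TPM per transcript, per the file headers, and the submitters' processing notes name bcl2fastq 2.20, Trim Galore, DESeq2 and hg38; the quantifier's version is not given in the sources used here. The deposited estimated counts were summed per gene with GENCODE release 29, which matched 158359 of 194142 transcripts and 91.0 to 91.6% of reads, and were rounded; the deposited TPM were not tested. Genes were filtered (filterByExpr, minimum count 10, minimum total 15), scaled by TMM and fitted in edgeR 4.0.16 (R 4.3.3, robust quasi-likelihood) with 4 group means, with p-values adjusted over all 15780 genes and a threshold of 0.05. Alternatives used limma 3.58.1, DESeq2 1.42.0, other scalings, and each library left out, and the fit was tested on simulated data. The sources do not say whether the 3 samples of a group came from separate cultures, so p-values measure the spread between these samples. Named genes were POLR3A, then protein-coding genes at a mean log2 CPM of at least 3 whose groups did not overlap: per direction the 6 largest differences in each class of 1 perturbation, the 4 largest among opposed genes, the 4 with the largest smaller effect among genes moved in the same direction, and the 3 narrowest intervals among genes changed alike; and up to 4 per list by the size of a called difference, with any called member against its list's direction. Other genes were chosen after their values were seen. Some genes that the rule names are not reported here. The members and lists were chosen with earlier results of these data known.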

Additional observations from a re-analysis of the deposited data

How the results depend on the processing

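Class sizes depended most on the size of effect asked for. Testing against a 1.2-fold change left 4223 genes with a called difference, 3416 called after siPOLR3A, 1081 with ML60218, 548 in ML60218 alone, 156 in opposite directions, 95 in the same direction without a called difference and 20 with one. An offset for isoform length left 436 genes in the same direction with a called difference. With 1 library left out, genes with a called difference numbered 7504 to 8266, those called after siPOLR3A 7517 to 8624 and with ML60218 5608 to 6993. The classes then held 2838 to 3499 (siPOLR3A alone), 1300 to 1818 (ML60218 alone), 1936 to 2469 (opposite), 1066 to 1246 (same direction without a called difference) and 573 to 862 (with one). The replicate numbers did not pair the samples within an experiment. For this, each sample's log2 CPM was taken as its deviation from the mean of its group, over 10386 genes. These deviations had correlations of -0.106 to -0.023 between same-numbered samples. With the number as a block 7658 differences, 7964 siRNA effects and 6328 ML60218 effects were called. The TNRC6B difference reversed to 0.000180 with the isoform length offset and the FADS1 effect of ML60218 to 0.001341 after scaling to total counts; the cause was not tested. Under total counts the median over all genes was 0.056 after siPOLR3A and 0.078 with ML60218, against 0.012 and 0.0072. Of 167 named genes, 46 kept their class under all 24 alternatives and 1 more under the 23 in which it was tested. Small list medians, such as those of the Pol III and Pol I subunits, changed sign under some alternatives.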
